A study of Mus musculus with 24 samples.

Results

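Messenger RNA of the pre-B-cell receptor and its first signalling proteins was followed in B cells from the bone marrow of irradiated mice, before and in leukemia. The set holds 10 genes chosen by name: Igll1, Vpreb1, Vpreb3, Cd79a, Cd79b, Blnk, Syk, Btk, Plcg2 and Lyn. Of these, 9 had a probe set carrying their symbol alone, out of 19938 named genes on the array, and each of the 9 had 1 probe set. Lyn, a Src-family kinase, was not analysed here. All 9 measured genes passed the filter on dim signals, and none lay at or below the dim level on any of the 24 arrays.

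Total RNA of each mouse was hybridised to its own Affymetrix gene array. The samples form 4 groups, and all mice had received 2 Gy of irradiation. The preleukemic groups are pro-B and pre-B cells of wild-type mice (n = 3) and of Pax5+/- mice (n = 7), which keep 1 functional allele of Pax5, the factor that commits cells to the B lineage. The leukemic groups are bone marrow of wild-type mice (n = 4) and Pax5+/- mice (n = 10) with leukemia, labelled as B cells. Because the 2 stages differ in the material taken as well as in disease, these differences cannot be told apart. The labels give 3 weeks of irradiation for every sample, so the age and time at which leukemic mice were sampled are not known here. They call the samples biological replicates and state no batch. Values are log2 signals, so a difference of 1 is a doubling. In bulk samples, fewer cells of a type and less RNA per cell cannot be told apart.

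The pre-B-cell receptor appears on large pre-B cells that have made an immunoglobulin heavy chain but no light chain. The heavy chain pairs with a surrogate light chain, made of the products of Igll1 (lambda5) and Vpreb1, and sits in the membrane with the signalling chains Igα (Cd79a) and Igβ (Cd79b). Src-family kinases such as Lyn phosphorylate these chains, Syk docks on them, and the adaptor Blnk (SLP-65) brings Btk to phospholipase Cγ2 (Plcg2), which starts calcium and protein kinase C signalling. The pathway first drives proliferation and then closes it down, and Blnk and Btk act as tumour suppressors in mouse pre-B cells.

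Promoter sequences from RefSeq (mouse build GRCm38.p6) are shown for 5 members that stand for the patterns reported here. Igll1 and Vpreb1 encode the surrogate light chain and were not called in either comparison of stages, Cd79a and Blnk were lower in leukemia, and Plcg2 was higher. Each run is the 250 bases before the annotated start, 5′ to 3′ on the strand of the gene, at chr16:16863986-16864235 (minus strand) for Igll1, chr16:16869256-16869505 (minus) for Vpreb1, chr7:24897247-24897496 (plus) for Cd79a, chr19:40994222-40994471 (minus) for Blnk and chr8:117498025-117498274 (plus) for Plcg2. Capitals mark every E-box, CANNTG, the motif that E2A (Tcf3) and other basic helix-loop-helix factors recognise, which reads the same way on both strands.
Igll1: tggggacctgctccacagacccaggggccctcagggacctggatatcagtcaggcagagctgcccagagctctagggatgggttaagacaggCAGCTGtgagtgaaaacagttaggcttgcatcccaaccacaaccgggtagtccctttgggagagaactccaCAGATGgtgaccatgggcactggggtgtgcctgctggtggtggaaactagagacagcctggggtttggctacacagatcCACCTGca
Vpreb1: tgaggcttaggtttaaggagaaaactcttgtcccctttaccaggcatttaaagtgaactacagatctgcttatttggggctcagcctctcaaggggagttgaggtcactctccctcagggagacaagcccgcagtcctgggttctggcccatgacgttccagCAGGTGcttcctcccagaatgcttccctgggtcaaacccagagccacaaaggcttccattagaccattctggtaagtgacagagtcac
Cd79a: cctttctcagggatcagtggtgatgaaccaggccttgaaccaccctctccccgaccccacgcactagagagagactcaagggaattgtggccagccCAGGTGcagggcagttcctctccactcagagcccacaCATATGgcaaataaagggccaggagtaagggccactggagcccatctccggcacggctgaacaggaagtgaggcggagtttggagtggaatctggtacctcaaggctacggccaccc
Blnk: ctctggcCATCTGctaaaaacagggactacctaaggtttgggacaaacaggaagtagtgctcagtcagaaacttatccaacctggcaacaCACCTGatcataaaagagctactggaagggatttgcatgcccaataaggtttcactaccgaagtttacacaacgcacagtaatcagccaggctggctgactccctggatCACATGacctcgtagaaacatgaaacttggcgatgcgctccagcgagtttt
Plcg2: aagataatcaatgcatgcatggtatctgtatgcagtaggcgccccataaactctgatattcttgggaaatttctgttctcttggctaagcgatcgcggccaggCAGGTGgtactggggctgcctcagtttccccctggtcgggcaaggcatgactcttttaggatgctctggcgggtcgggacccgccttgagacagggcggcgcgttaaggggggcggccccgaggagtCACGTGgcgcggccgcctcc
An E-box was present in windows of 300 bases, 250 before to 50 after the start, of all 8 members that have an entry, and in 72.3% of 32851 mouse promoters of that length. Its form CACCTG, searched on both strands, lay in 6 of the 8, namely Igll1, Vpreb1, Cd79a, Blnk, Syk and Plcg2, and in 20.2% of all promoters. The form CAGCTG lay in 2 of the 8 (Igll1 and Syk) and in 16.3% of promoters. Both forms are counted among the E-boxes. The core CCCNNGGG of the EBF motif lay in 1 (Igll1) and in 13.7% of promoters, and the letters GCGTGAC, a core of PAX5 motifs, in 1 (Syk) and in 2.09%. These motifs too were searched on both strands. The promoters of Plcg2, the member that rose, and of Blnk and Cd79a, which fell, all carried CACCTG. A match is a run of letters and not evidence of binding.

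Pax5 itself checks the genotype labels only in part, since the position of its probes relative to the deleted part is not given here. Its values in the preleukemic wild-type mice were 11.47, 12.00 and 12.16, and in the preleukemic Pax5+/- mice they ran from 11.34 through a median of 11.40 to 11.59. The groups overlapped only in wild-type mouse 1 (11.47), which also stood apart in granulocyte signal (below), and the other 2 lay above all Pax5+/- mice. The difference of -0.45 did not pass the test over all genes (exact two-sided permutation p = 0.0333, unadjusted, and adjusted p = 0.960). Every adjusted p here is from limma with Benjamini-Hochberg adjustment over 15647 genes unless another test is named, and a gene is called at 0.05. Over the alternatives the smallest adjusted p of this difference was 0.117. In leukemia Pax5 was 10.74, 6.34, 10.67 and 10.03 in the wild-type mice, and ran from 6.87 through 8.34 to 11.37 in the Pax5+/- mice. It was lower than in preleukemic cells in both genotypes, 7.47-fold in Pax5+/- (adjusted p = 9.4e-05) and 5.38-fold in wild type (adjusted p = 0.0256). The wild-type fall rests on leukemia 2, without which it was 2.63-fold (adjusted p = 0.106), and its exact permutation p was 0.0857. Its call was also lost without preleukemic mouse 2 or 3 (adjusted p = 0.0752 and 0.0859), and its adjusted p ran from 0.0143 to 0.115 over the alternatives.

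Markers of other cells also differed between the stages. The mean log2 signal of 8 megakaryocyte and platelet genes ran from 6.59 to 6.80 in the preleukemic mice of both genotypes and from 7.63 to 10.45 in the leukemic mice, and all 8 were called higher in both genotypes. Of 12 monocyte and macrophage genes, 10 were higher in Pax5+/- leukemia and 7 in wild-type leukemia, and of 15 granulocyte genes 11 and 0. The granulocyte mean was 6.17 to 6.90 in preleukemic Pax5+/- mice and 6.17 to 11.03 in leukemic ones, so some Pax5+/- leukemias had granulocyte signal no higher than the preleukemic Pax5+/- cells. The wild-type leukemias had granulocyte means of 8.28 to 10.37. Stromal and endothelial genes were higher too, 9 of 10 in each genotype, with a mean of 6.31 to 6.52 in all preleukemic and 7.14 to 8.30 in all leukemic mice. The other lists moved in part, some in both directions. Of 7 mature B-cell genes, 1 was higher and 3 lower in Pax5+/- leukemia, and 0 and 3 in wild-type leukemia. Of 5 plasma-cell genes, 1 was higher and 2 lower in Pax5+/- leukemia, and 2 and 1 in wild-type leukemia. Of 6 erythroid genes, 3 were higher in wild-type leukemia and 1 was lower in Pax5+/- leukemia, and in Pax5+/- leukemia 2 of 9 T-cell and 1 of 8 NK-cell genes were higher. Preleukemic wild-type mouse 1 stood apart with a granulocyte mean of 10.76, against 6.54 and 6.58 in the other 2, and its part in the wild-type results was measured by leaving it out. The same 6 members were then lower and 1 higher, with differences of -2.87 for Vpreb3, -1.77 for Cd79a, -1.04 for Cd79b, -3.45 for Blnk, -2.24 for Syk, -1.23 for Btk and 0.64 for Plcg2 (largest adjusted p 0.00707). In preleukemic Pax5+/- mice, some markers were at or below the dim level on all arrays. These were Cxcr2 (granulocyte), Ms4a7 (monocyte), Clec1b (platelet), Cd3d and Cd8b1 (T cell), Lepr (stromal) and Cr2 (mature B cell). Of 14 genes of pro-B and pre-B cells, 10 were lower in Pax5+/- leukemia and 9 in wild-type leukemia, with 0 higher. This list includes Pax5 and the members Igll1, Vpreb1, Vpreb3, Cd79a and Cd79b, so it is not separate from the results below. The part of these other cells in the differences below was not tested. Values of some of these lists are given beside Plcg2 as a description.

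The first comparison asked which parts of the receptor pathway differ between leukemic and preleukemic cells that lack 1 copy of Pax5. Transcripts of both signalling chains, the adaptor and both kinases were lower in leukemia, from 1.80-fold for Btk to 3.62-fold for Syk, and Vpreb3 was 4.73-fold lower. Plcg2 was 1.56-fold higher. The surrogate light chain genes Igll1 and Vpreb1 ranged from preleukemic levels down to well below them and were not called. Of the 9 members, 6 were thus lower, 1 was higher and 2 were not called. Among all 15647 genes tested, 62.9% were called in this comparison, 35.1% lower and 27.8% higher, so a call alone sets no member apart. With every array centred on its own median the calls were 3502 lower and 5066 higher, in place of 5485 and 4354, and with centring on the median of the tested genes they were 8930 and 2827. Each member called here kept its direction under both. Differences of at least 2-fold were rarer. They were reached by 4 lower members (Vpreb3, Cd79a, Blnk and Syk) and by 2.99% of all genes in that direction. The median difference was -0.91 over the members and -0.05 over all genes.

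The same comparison in mice with intact Pax5 gave the same count: 6 of 9 members lower, 1 higher and 2 not called, against 39.1% of all genes called, 20.4% lower and 18.7% higher. There, centring the arrays on their own medians gave 2177 lower and 3379 higher, in place of 3191 and 2924, and centring on the tested genes gave 5741 and 2214. A fall of at least 2-fold was called for 5 members (Vpreb3, Cd79a, Blnk, Syk and Btk) and for 3.58% of all genes. The median was -1.34 over the members and -0.05 over all genes. For the 7 called members the leukemic and preleukemic mice did not overlap in either genotype. Over all genes, 10.5% were lower without overlap and 11.7% higher without overlap in Pax5+/- mice, and 20.4% and 18.9% in wild type. The 2 stage comparisons share no mice.

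**Figure D1:**
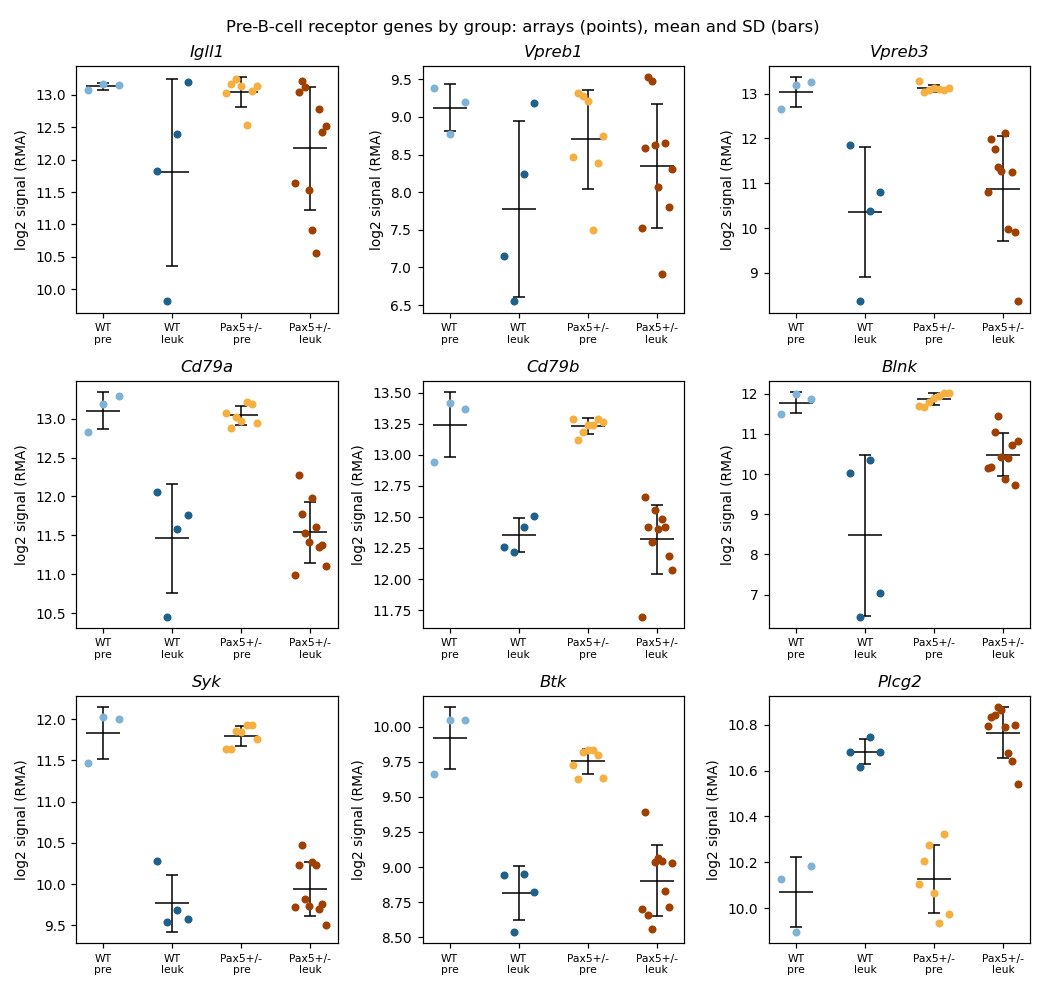
Log2 signal (vertical axes) of the 9 measured members in each of the 24 mice, by group, with each group's mean and SD. Apart from Vpreb1, whose preleukemic Pax5+/- mice run from 7.50 to 9.32, the preleukemic mice lie close together. Among the leukemias Igll1, Vpreb1, Vpreb3, Cd79a and Blnk spread over 1 unit or more, and Plcg2 is higher in all 14 leukemias.

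Igll1 encodes lambda5, the constant-like chain of the surrogate light chain. Its log2 signal was 13.07, 13.17 and 13.15 in the preleukemic wild-type mice and ran from 12.54 through 13.13 to 13.24 in the preleukemic Pax5+/- mice. The leukemic wild-type mice had 11.83, 9.81, 12.39 and 13.20, and the leukemic Pax5+/- mice ran from 10.56 through 12.47 to 13.21. Wild-type leukemia 4 was above all 3 preleukemic wild-type mice and several Pax5+/- leukemias were as high as the preleukemic ones, while others lay several units lower, so the groups overlapped. The difference between stages was -0.87 ± 0.40 (SE) in Pax5+/- mice (95% interval -1.70 to -0.04, adjusted p = 0.0641) and -1.32 ± 0.62 in wild type (-2.61 to -0.03, adjusted p = 0.0952), and neither passed. The Pax5+/- difference sat near the threshold. Its adjusted p ran from 0.0206 to 0.115 over the alternatives, and an exact two-sided permutation test over the mice gave p = 0.0301, unadjusted. In wild type, leaving out leukemia 4 gave -1.79 (adjusted p = 0.0287) and leaving out leukemia 2 gave -0.66 (adjusted p = 0.360).

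Vpreb1 encodes the variable-like chain of the surrogate light chain, and lies close to Igll1 on chromosome 16. Its signal was 9.39, 8.78 and 9.21 in the preleukemic wild-type mice and 7.15, 6.55, 8.24 and 9.18 in the leukemic ones. Only leukemia 4 reached the preleukemic values. In Pax5+/- mice it ran from 7.50 through 8.74 to 9.32 before leukemia and from 6.91 through 8.45 to 9.53 in leukemia, and these ranges largely coincide. The stage difference was -0.35 ± 0.38 in Pax5+/- mice (95% interval -1.13 to 0.43, adjusted p = 0.418) and -1.34 ± 0.58 in wild type (-2.55 to -0.14, adjusted p = 0.0712). Without wild-type leukemia 4 the latter was -1.81 (adjusted p = 0.0174), and over all alternatives its adjusted p ran from 0.0174 to 0.221. Vpreb2, a close copy of Vpreb1 whose transcript the Vpreb1 probes may also bind, was not called either, at 0.24 in Pax5+/- mice (adjusted p = 0.335) and -0.21 in wild type (adjusted p = 0.637).

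Vpreb3 encodes a small immunoglobulin-like protein of the endoplasmic reticulum that binds newly made immunoglobulin chains in B-cell precursors. Its signal was 12.65, 13.19 and 13.26 in preleukemic wild-type mice, and ran from 13.04 through 13.11 to 13.29 in preleukemic Pax5+/- mice. In leukemia it was 11.84, 8.38, 10.39 and 10.80 in wild type and ran from 8.36 through 11.26 to 12.12 in Pax5+/- mice. Every leukemia was below every preleukemic mouse, and the lowest leukemia was 25.2-fold below the preleukemic mean in wild type and 27.1-fold below it in Pax5+/- mice. The fall was -2.24 ± 0.45 in Pax5+/- mice (4.73-fold, adjusted p = 0.000222) and -2.68 ± 0.70 in wild type (6.41-fold, adjusted p = 0.00451). The exact permutation test gave p = 0.000154 and p = 0.0571, the latter above 0.05 in a design whose smallest possible p is 0.0286. Wild-type values ran from -3.18 to -2.02 over the alternatives, the smaller fall being that without leukemia 2.

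Cd79a and Cd79b encode Igα and Igβ, the chains that carry the signal of both the pre-B-cell receptor and the mature receptor. Cd79a was 12.83, 13.19 and 13.29 in the preleukemic wild-type mice and 12.06, 10.46, 11.58 and 11.76 in the leukemic ones. The Pax5+/- mice ran from 12.88 through 13.03 to 13.22 before leukemia and from 10.99 through 11.47 to 12.28 in leukemia. Every leukemia lay below its preleukemic group. Cd79a fell by 1.50 ± 0.18 in Pax5+/- mice (2.83-fold, adjusted p = 4.49e-07) and by 1.64 ± 0.28 in wild type (3.11-fold, adjusted p = 0.000118).

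Cd79b was 12.94, 13.42 and 13.37 in the preleukemic wild-type mice and 12.26, 12.22, 12.42 and 12.51 in the leukemic ones. The Pax5+/- mice ran from 13.12 through 13.24 to 13.29 before leukemia and from 11.70 through 12.41 to 12.66 in leukemia. The groups did not overlap, and the leukemias differed from each other less than in Cd79a. Cd79b fell by 0.91 ± 0.10 in Pax5+/- mice (1.88-fold, adjusted p = 1.23e-07) and by 0.89 ± 0.16 in wild type (1.85-fold, adjusted p = 0.000147). The preleukemic signals of Igll1, Vpreb3, Cd79a and Cd79b were all within the top 0.296% of named genes on their arrays, near the end of the scale where array signals compress differences.

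Blnk encodes the adaptor that links Syk to Btk and phospholipase Cγ2. Its signal was 11.48, 11.98 and 11.87 in the preleukemic wild-type mice and 10.04, 6.45, 10.36 and 7.04 in the leukemic ones. The range in Pax5+/- mice was from 11.66 through 11.89 to 12.02 before leukemia and from 9.74 through 10.42 to 11.44 in leukemia. All leukemias were below the preleukemic mice, but wild-type leukemias 2 and 4 were far lower than the other 12, at 40.0-fold and 26.6-fold below the preleukemic wild-type mean. The fall was -1.38 ± 0.40 in Pax5+/- mice (2.60-fold, adjusted p = 0.00552) and -3.30 ± 0.63 in wild type (9.87-fold, adjusted p = 0.000285). Without wild-type leukemia 2 the wild-type fall was 6.19-fold (adjusted p = 0.000927), and over all alternatives it ran from 6.19-fold to 15.3-fold with adjusted p from 2.64e-05 to 0.0397. The exact permutation test gave p = 0.000154 in Pax5+/- mice and p = 0.0857 in wild type.

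Syk encodes the tyrosine kinase that docks on the phosphorylated signalling chains. It was 11.47, 12.02 and 12.00 in the preleukemic wild-type mice and 10.28, 9.53, 9.69 and 9.57 in the leukemic ones. In Pax5+/- mice it ran from 11.63 through 11.85 to 11.93 before leukemia and from 9.51 through 9.79 to 10.48 in leukemia. The groups were apart by more than the whole range of the leukemias in Pax5+/- mice. Syk fell by 1.86 ± 0.13 in Pax5+/- mice (3.62-fold, adjusted p = 1.71e-10) and by 2.06 ± 0.21 in wild type (4.18-fold, adjusted p = 1.65e-07), the smallest adjusted p of the 9 members in both. Syk is also expressed in granulocytes, monocytes and platelets. Monocyte and platelet markers were called higher in leukemia of both genotypes, and granulocyte markers only in Pax5+/- mice. In wild type the granulocyte mean was 8.28 to 10.37 in leukemia, against 10.76, 6.54 and 6.58 in preleukemic mice 1, 2 and 3.

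Btk encodes the Tec-family kinase that activates phospholipase Cγ2. It was 9.66, 10.04 and 10.05 in the preleukemic wild-type mice and 8.94, 8.54, 8.95 and 8.82 in the leukemic ones. Among Pax5+/- mice it ran from 9.63 through 9.80 to 9.84 before leukemia and from 8.56 through 8.93 to 9.39 in leukemia. Every leukemia was below every preleukemic mouse. Btk was 1.80-fold lower in Pax5+/- mice (-0.85 ± 0.10, adjusted p = 1.84e-07) and 2.15-fold lower in wild type (adjusted p = 8.36e-06).

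Plcg2 encodes phospholipase Cγ2, the enzyme at the end of this chain, and it was the only measured member with a higher signal in leukemia. It was 10.12, 9.90 and 10.18 in the preleukemic wild-type mice and 10.68, 10.62, 10.75 and 10.68 in the leukemic ones. In Pax5+/- mice it ran from 9.93 through 10.10 to 10.32 before leukemia and from 10.54 through 10.80 to 10.88 in leukemia. All 14 leukemias exceeded all 10 preleukemic mice. Plcg2 rose by 0.64 ± 0.06 in Pax5+/- mice (1.56-fold, adjusted p = 1.12e-08) and by 0.61 ± 0.09 in wild type (1.53-fold, adjusted p = 3.26e-05). The rise ran from 0.44 to 0.71 and from 0.49 to 0.68 over the alternatives. Plcg2 is also expressed by myeloid cells and platelets. Preleukemic wild-type mouse 1, with a granulocyte mean of 10.76, had a Plcg2 signal of 10.12, within the range of the preleukemic Pax5+/- mice. Pax5+/- leukemia 7, with a granulocyte mean of 6.17, was 0.55 above the preleukemic mean, and its platelet mean of 10.45 was the highest of the 14 leukemias. The monocyte mean of this leukemia was 7.29, against 6.04 to 6.25 in the preleukemic Pax5+/- mice. The platelet, monocyte and stromal means were above those of all preleukemic mice in all 14 leukemias. For the monocyte list the margin was narrow, at 7.03 in Pax5+/- leukemia 8 against 7.01 in preleukemic wild-type mouse 1. The part of these lists and of the granulocyte list in the Plcg2 difference was not tested.

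**Figure D2:**
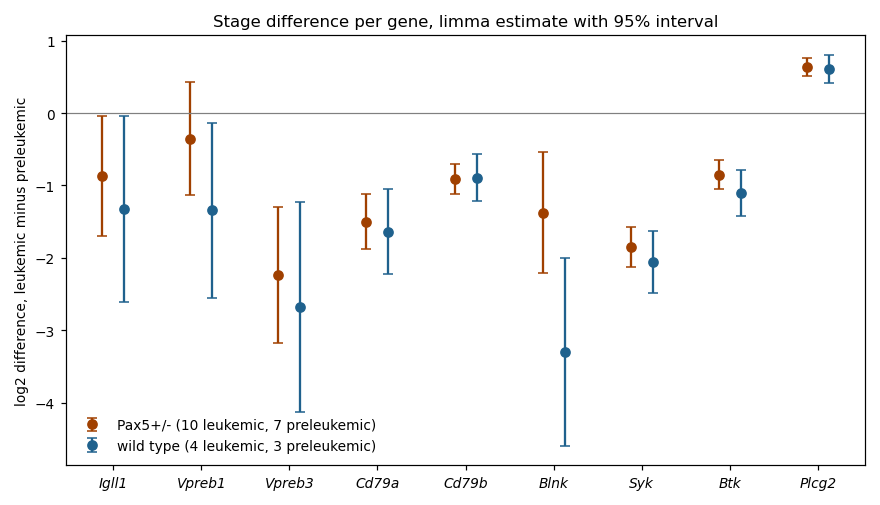
Leukemic minus preleukemic difference in log2 signal with its 95% interval for each measured member, in Pax5+/- and in wild-type mice. Cd79a, Cd79b, Blnk, Syk, Btk and Vpreb3 lie below 0 in both genotypes, Plcg2 lies above 0 at 0.64 and 0.61, and the intervals of Igll1 and Vpreb1 reach close to or across 0.

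The genotypes were then compared within each stage, and their stage differences with each other, to ask whether the loss of 1 Pax5 copy goes with a different level of the pathway. Before leukemia no member was called (limma, 0 of 9, with 0 at an unadjusted p under 0.05, and 0.786% of all genes called). The 9 differences ran from -0.42 for Vpreb1 to 0.09 for Vpreb3, with adjusted p from 0.837 to 0.999. The genotypes overlapped for every member (over all genes, 1.94% were higher and 3.45% lower in Pax5+/- mice without overlap). For Btk, Cd79b and Syk the overlap came from wild-type mouse 1, whose granulocyte mean was 10.76. Wild-type mice 2 and 3 lay above all Pax5+/- mice, for Btk at 10.04 and 10.05 against at most 9.84. Over the alternatives, which left out each mouse in turn, the smallest adjusted p (limma) was 0.502 for Btk, 0.809 for Cd79b and 0.815 for Syk. In leukemia no member was called either (0 of 9, with 1 at an unadjusted p under 0.05, and 0.16% of all genes called), and again the genotypes overlapped for all 9 (0.141% and 0.198% of all genes did not overlap). The difference of the stage differences was called for 0 of 9 members as well, with 1 at an unadjusted p under 0.05 and 0.185% of all genes called.

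The 1 gene in both cases was Blnk. Its mean in leukemia was 10.48 ± 0.53 (SD, n = 10) in Pax5+/- mice and 8.47 ± 2.01 (SD, n = 4) in wild type, a difference of 2.01 ± 0.48 (SE; 4.02-fold, 95% interval 1.00 to 3.01, adjusted p = 0.101). The groups overlapped, since wild-type leukemias 1 and 3, at 10.04 and 10.36, lay among the Pax5+/- leukemias. The exact two-sided permutation test gave p = 0.0170, unadjusted. Leaving out wild-type leukemia 1 or 3 gave 2.53 (adjusted p = 0.0360) and 2.64 (adjusted p = 0.00371), while leaving out leukemia 2 or 4 gave 1.33 (adjusted p = 0.629) and 1.53 (adjusted p = 0.384), which is the whole range over the alternatives. The value thus rests on 2 of 4 wild-type leukemias. The fall of Blnk between stages differed between the genotypes by 1.92 ± 0.74 (95% interval 0.38 to 3.47, adjusted p = 0.471). The other 8 members differed between leukemic genotypes by -0.03 for Cd79b to 0.57 for Vpreb1, with adjusted p of 0.865 or more. Without wild-type leukemia 2 the sign of the difference turned for Igll1 (-0.30), Vpreb3 (-0.13), Cd79a (-0.26) and Btk (-0.0021), so these directions rest on it. The 95% intervals were wide for Igll1 (-0.63 to 1.37), Vpreb1 (-0.37 to 1.50) and Vpreb3 (-0.60 to 1.65). For each member the order of the 4 group means followed stage, with both preleukemic groups on one side and both leukemic groups on the other, and no difference between neighbours of the same stage passed the test.

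Single leukemias were then set against the preleukemic mice of their own genotype. Vpreb3, Cd79a, Cd79b, Blnk, Syk and Btk were below the lowest preleukemic mouse in 14 of 14 leukemias, and Plcg2 was above the highest in 14 of 14. Igll1 was below that range in 9 leukemias, within it in 4 and above it in 1 (wild-type leukemia 4). Vpreb1 was below in 4, within in 8 and above in 2 (Pax5+/- leukemias 3 and 4).

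How low single members were differed from leukemia to leukemia, as shown here by log2 differences from the preleukemic mean of the same genotype. In wild-type leukemia 4 the difference was -4.73 for Blnk but 0.07 for Igll1 and 0.06 for Vpreb1. Wild-type leukemia 2 had the lowest signal of the 4 for all 9 members, with differences of -5.32 for Blnk, -4.66 for Vpreb3, -3.32 for Igll1 and -2.57 for Vpreb1. It also had the lowest Pax5 signal of the 14 (6.34) and the highest mean of the NK-cell list (9.53), whose part in these values was not tested. Its mean of the pro-B and pre-B list was the lowest as well (8.63), but that list includes Pax5 and several of the members. Pax5+/- leukemia 7 was lowest of its genotype in Igll1 (-2.48) and Vpreb1 (-1.79), with Blnk at -1.46. Pax5+/- leukemia 10 was lowest in Vpreb3 (-4.76), with Igll1 at -0.52 and Vpreb1 at -0.40. The opposite pattern was seen in Pax5+/- leukemias 3 and 4, whose signals were 13.21 and 13.12 for Igll1 and 9.53 and 9.48 for Vpreb1. Their Blnk differences of -0.81 and -0.42 were the smallest of the 14 leukemias. Pax5+/- leukemia 2, whose Pax5 signal of 11.37 was in the preleukemic range, had the smallest differences of the 14 in Cd79a (-0.76) and Btk (-0.36), with Igll1 at 0.01.

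**Figure D3:**
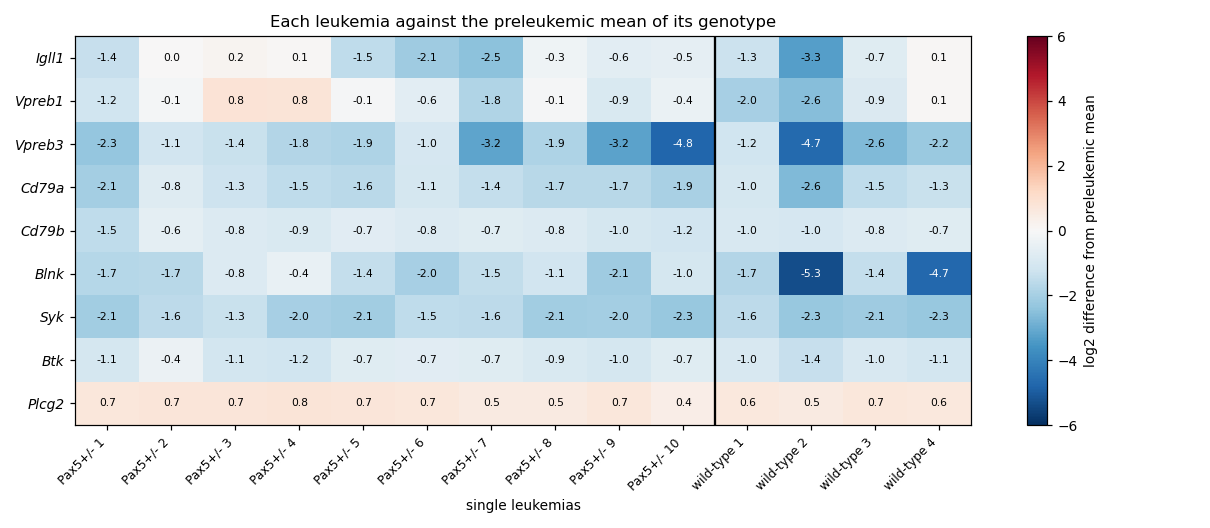
Difference of each of the 14 leukemias from the mean of the preleukemic mice of its genotype, in log2 units, for the 9 measured members (colour scale). Wild-type leukemias 2 and 4 stand out for Blnk (-5.32 and -4.73), Pax5+/- leukemia 10 for Vpreb3 (-4.76), and Plcg2 is above 0 throughout.

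Most members varied more between leukemias than the median gene did. Among the 10 Pax5+/- leukemias the median SD of the members was 0.39, against 0.17 over all genes tested, and 8 of 9 members were above the latter. Vpreb3 (SD 1.16), Igll1 (0.95), Vpreb1 (0.82) and Blnk (0.53) were above the 90th percentile of all genes, 0.469, while Plcg2 varied least (0.11). Among the 4 wild-type leukemias Blnk varied most (2.01) and Plcg2 least (0.05), with a median of 0.70 against 0.13 for all genes. A spread above that of the median gene was not limited to leukemia. In preleukemic wild-type mice (n = 3) the median SD was 0.26 for the members and 0.15 for all genes, and 8 of 9 members were above the latter. Mouse 1 stood apart there, as in Vpreb3 (12.65, against 13.19 and 13.26) and Syk (11.47, against 12.02 and 12.00). In preleukemic Pax5+/- mice the median SD was 0.12 for the members and for all genes, and Vpreb1 was the most variable member (0.66). Members above the 90th percentile of their group numbered 0 in preleukemic wild type and 2 in preleukemic Pax5+/- mice. In leukemia they numbered 5 in wild type and 4 in Pax5+/- mice.

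Relations among the members were examined over the 10 Pax5+/- leukemias, in 54 pairs of measures made of the 36 member pairs and of each member with Pax5 and with the granulocyte mean. Permutation p-values rest on 100000 resamples. With Benjamini-Hochberg adjustment over the 54, 0 Pearson correlations and 1 Spearman correlation passed, and 9 Pearson correlations had an unadjusted p under 0.05. Igll1 and Vpreb1, the genes for both chains of the surrogate light chain, gave r = 0.778 (permutation p = 0.00775, adjusted p = 0.107) and rho = 0.794 (permutation p = 0.00846, adjusted p = 0.180), and r = 0.675 without the 2 leukemias farthest from the median of Igll1. Cd79a and Syk gave r = 0.807 (permutation p = 0.00434, adjusted p = 0.107) and rho = 0.903 (adjusted permutation p = 0.0481), and r = 0.826 without 2 leukemias. Btk and Pax5 gave r = 0.809 (permutation p = 0.00486, adjusted p = 0.107) and rho = 0.745, and r was 0.581 without leukemias 1 and 2. Cd79a and Pax5 gave r = 0.764, and 0.204 without the same 2, so within the Pax5+/- leukemias that relation rests on them. Over all 14 leukemias of both genotypes it was r = 0.801 (adjusted permutation p = 0.0135). These include wild-type leukemia 2, the lowest of the 14 in both Pax5 (6.34) and Cd79a (10.46). The correlation over 14 was not repeated without that leukemia alone. Igll1 and Pax5 gave r = 0.026, and -0.783 without those 2 leukemias (permutation p = 0.0225, adjusted p = 0.243). No member's correlation with the granulocyte mean passed, and that of Plcg2 was r = 0.096.

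The genes most like Igll1 and Blnk were sought over the 14 leukemic arrays by Pearson's r, as a description. For Igll1 they were Kctd5 (0.853), Tmem119 (0.845), Lcorl (0.831), Emd (0.802) and Usp1 (0.796), all with r from 0.780 to 0.925 within the 10 Pax5+/- leukemias. For Blnk they were Dntt (0.933), Cul5 (0.928), Zbtb18 (0.897), Rsrc1 (0.847) and Brd1 (0.842). Within the Pax5+/- leukemias Dntt, which encodes the terminal transferase of immature lymphocytes, gave 0.865, and Cul5 gave 0.428. The 10 Pax5+/- leukemias are among the 14 by which these genes were chosen, so values within them are not a separate check. Dntt was 11.08, 8.30, 10.94 and 8.21 in the wild-type leukemias, low in the same 2 as Blnk, and 9.81 to 12.23 in the Pax5+/- leukemias. It was 10.36 to 10.70 in the preleukemic wild-type mice and was not called between stages in either genotype (adjusted p = 0.205 and 0.266).

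**Figure D4:**
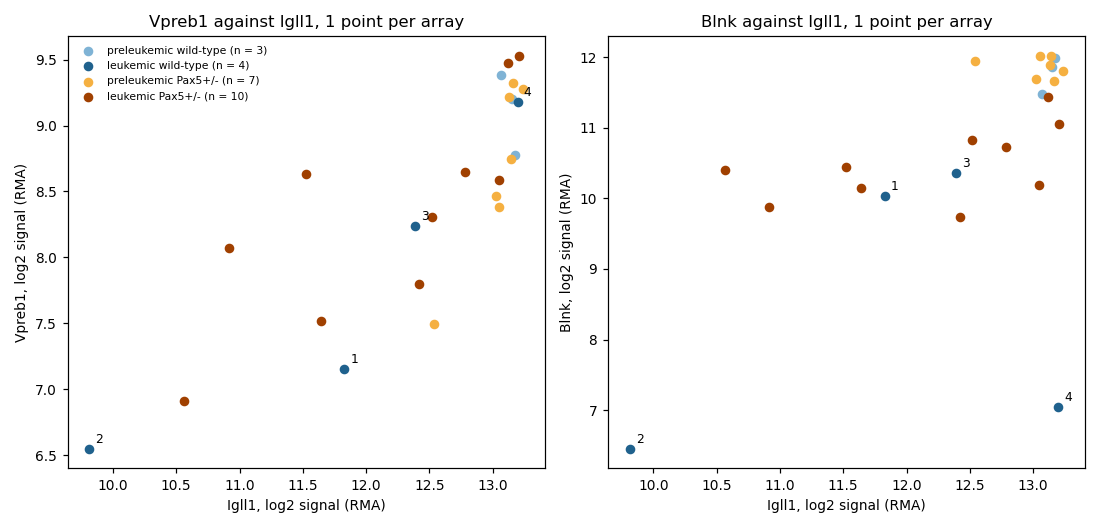
Log2 signal of Vpreb1 (left) and Blnk (right) against that of Igll1 (horizontal axes), 1 point per mouse in all 24 mice, coloured by group, with the 4 wild-type leukemias numbered. Vpreb1 and Igll1 are both lowest in wild-type leukemia 2 (6.55 and 9.81), with other mice scattered, as Pax5+/- leukemia 5 with Igll1 at 11.52 and Vpreb1 at 8.63, while Blnk stays between 9.74 and 11.44 across the Igll1 range of the Pax5+/- leukemias and is 6.45 and 7.04 in wild-type leukemias 2 and 4.

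The wider pathway was described from lists of genes named for their known roles. Among receptor partners and coreceptors, 2 of 6 tested genes were higher and 2 lower in Pax5+/- leukemia (list median 0.04, against -0.05 for all genes), and 2 higher and 3 lower in wild type. Ighm, the µ heavy chain that the surrogate light chain pairs with, was 5.35-fold lower in Pax5+/- mice (adjusted p = 4.11e-06) and 6.06-fold lower in wild type. Its signal ran from 10.14 through 10.73 to 11.22 in the preleukemic Pax5+/- mice and from 7.20 through 8.02 to 10.10 in the leukemic ones. Cd81, a tetraspanin, rose 1.95-fold and 1.82-fold, and Ifitm1, an interferon-induced membrane protein, 11.7-fold and 15.4-fold, while the tetraspanin Cd37 was 1.30-fold and 1.52-fold lower.

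Among other Src, Syk and Tec family kinases, 2 of 6 were higher and 1 lower in Pax5+/- leukemia (list median 0.09), and 1 higher and 2 lower in wild type. Fyn, a Src-family kinase, rose 2.60-fold and 1.84-fold, and Csk, which holds Src-family kinases inactive, was 1.61-fold and 1.76-fold lower. Fgr, a Src-family kinase of myeloid cells, was 2.27-fold higher in Pax5+/- mice, and its difference of 0.40 in wild type was not called (adjusted p = 0.553). Its leukemic means were close, at 7.96 in Pax5+/- mice and 8.05 in wild type, and its preleukemic means were 6.78 and 7.65. Blk, the B-cell Src kinase, was 2.50-fold lower in wild type (adjusted p = 0.0161), and its difference of -0.17 in Pax5+/- mice was not called (adjusted p = 0.589). The difference between the stage differences of the genotypes was called for 0 of these 6 kinases.

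Of 22 downstream adaptors and effectors, 5 were higher and 12 lower in Pax5+/- leukemia (list median -0.25), and 2 higher and 11 lower in wild type (median -0.39). Rasgrp1, an activator of Ras that responds to diacylglycerol, was 11.2-fold and 5.55-fold lower, and Pik3ap1 (BCAP), which recruits phosphoinositide 3-kinase, was 3.33-fold and 5.37-fold lower. Lat2, an adaptor of myeloid and B cells, rose 6.02-fold and 2.71-fold. Rasgrp3 and Lcp2 (SLP-76, the relative of Blnk in T and myeloid cells and platelets) were higher in Pax5+/- mice, by 2.95 and 1.51, and their differences of 0.95 and 0.37 in wild type were not called. For neither gene was the difference between these stage differences called. Lcp2 had leukemic means of 8.75 in Pax5+/- mice and 9.11 in wild type, and preleukemic means of 7.24 and 8.74. Itpr3, a calcium channel of the endoplasmic reticulum, was the only gene of the 5 lists called between genotypes, at -0.61 before leukemia (adjusted p = 0.00681). Its stage differences of -0.15 in Pax5+/- mice and -0.87 in wild type differed by 0.71 (adjusted p = 0.0475).

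Of 16 inhibitors of antigen receptor signalling, 8 were higher and 6 lower in Pax5+/- leukemia (list median 0.09), and 3 higher and 7 lower in wild type (median -0.34). The lectin receptors Cd72 and Siglecg were 13.7-fold and 11.9-fold lower in Pax5+/- mice and 12.8-fold and 23.4-fold lower in wild type, and the adaptor Dok3 was 4.06-fold and 4.51-fold lower. Lax1, a transmembrane adaptor, rose 6.08-fold and 4.64-fold, and the phosphatase Ptpn22 rose 5.63-fold and 3.30-fold. Transcription factors of the pre-B stage moved in 1 direction, with 16 of 17 lower and 0 higher in Pax5+/- leukemia (list median -1.55) and 14 of 17 lower and 0 higher in wild type (median -1.96). Ikzf3 (Aiolos), which the pre-B-cell receptor induces and which represses Igll1, was 31.5-fold and 25.6-fold lower. The differences of Lef1, Bach2 and Irf4 were -3.12, -2.94 and -2.92 in Pax5+/- mice and -3.64, -3.90 and -2.95 in wild type. Spi1, which encodes PU.1, was the factor not called in Pax5+/- mice, at 0.14 (adjusted p = 0.379).

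**Figure D5:**
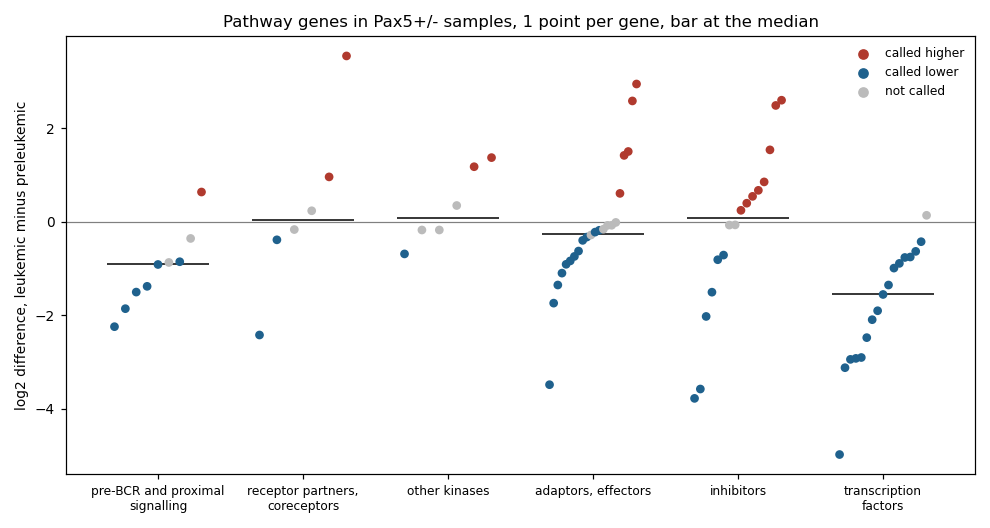
Leukemic minus preleukemic difference in log2 signal (vertical axis) for each tested gene of the members and of the 5 lists in Pax5+/- mice, coloured by the limma call, with a bar at each list's median. Of 17 transcription factors 16 are called lower (median -1.55), while coreceptors, kinases and inhibitors spread to both sides of 0 (medians 0.04, 0.09 and 0.09).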

How the data were processed

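The values used are the log2 signals of 35556 probe sets (3.48 to 14.2) that the authors deposited. Per the submitters' processing notes they came from RMA in the package oligo. This method subtracts background, makes the distributions of the arrays alike and combines probes into 1 value, and it compresses differences at both ends of the scale. Its versions and any batch correction are not stated. Array medians ran from 6.104 to 6.219 in the 14 leukemic samples and from 6.226 to 6.296 in the 10 preleukemic ones. No 2 arrays were duplicates (highest pairwise r 0.994). The number of arrays limits the precision.

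The platform table named the probe sets: 21789 carried 1 symbol, 1621 carried several and named no gene, and 12146 are unnamed here. A gene with several probe sets took the one with the highest mean. Genes were tested if they lay above the dim level, the 30th percentile of an array (5.18 to 5.35), on 3 or more arrays, as 15647 of 19938 named genes did. Lyn and some genes of the pathway lists are not reported here. A model of 4 group means over all 24 arrays was fitted with limma 3.58.1 in R 4.3.3 (eBayes, 20 residual degrees of freedom), with Benjamini-Hochberg adjustment over all tested genes, after the code was tested on simulated data. Exact permutation tests were run over the mice of 2 groups.

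The members and the lists were chosen with earlier results of these data known. Named genes are the members, Pax5, up to 5 called genes per pathway list with the largest difference in Pax5+/- mice, the 5 genes most like Igll1 and Blnk, and markers of other cells. Vpreb2, Blk, Itpr3 and Spi1 were added after their values were seen. Alternatives changed the eBayes prior, the samples fitted, array weights, the dim filter, the scaling, a block on replicate number and each array in turn. Centring on the median of the tested genes, and the alternatives for Pax5, were added after seeing the data. Promoters came from the RefSeq table of GRCm38.p6, which has entries for 8 of the 10 members. Cd79b and Lyn have none.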

Additional observations from a re-analysis of the deposited data

Results flagged for a closer look

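The highest and lowest mice were compared with the rest of their group for the members and Pax5, in 30 groups of 4 to 10 mice, and 3 values stood apart by Dixon's criterion, where chance gives about 1 in 20 groups. Igll1 in preleukemic Pax5+/- mouse 5 was 12.538, below the other 6 at 13.022 to 13.239. Vpreb3 in preleukemic Pax5+/- mouse 1 was 13.291, above the other 6 at 13.045 to 13.122, a gap that is small next to the fall of this gene in leukemia. Pax5 in wild-type leukemia 2 was 6.34, below the other 3 at 10.031 to 10.743, and the same leukemia had the lowest signal of the 4 for all 9 members.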

How the results depend on the processing

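Of 1089 alternative limma values for the 45 member results, 1041 kept direction and call, 13 passed where the value reported did not, 0 lost the call and 35 changed sign. The 14 called stage differences kept direction and call in 308 of 308, with a largest adjusted p of 0.0397. By the exact permutation test over the mice, Vpreb3 (p = 0.0571) and Blnk (p = 0.0857) in wild type did not pass.

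The 35 sign changes all fell on differences between genotypes or on the stage by genotype difference, which were not called before or after. With each array left out, the stage by genotype difference ran from -0.21 to 0.92 for Igll1, -0.22 to 0.94 for Vpreb3, -0.20 to 0.33 for Cd79a, -0.11 to 0.13 for Cd79b and -0.030 to 0.11 for Plcg2. The preleukemic genotype difference ran from -0.11 to 0.20 for Vpreb3, -0.19 to 0.034 for Cd79a, -0.16 to 0.074 for Cd79b, -0.065 to 0.19 for Blnk, -0.21 to 0.064 for Syk and -0.029 to 0.11 for Plcg2. The leukemic one ran from -0.30 to 0.83 for Igll1, -0.13 to 1.02 for Vpreb3, -0.26 to 0.28 for Cd79a, -0.077 to 0.037 for Cd79b and -0.0021 to 0.14 for Btk. Centring on the tested genes gave -0.047 for the stage by genotype difference of Plcg2, and before leukemia 0.0093 for Cd79a, 0.055 for Cd79b and 0.036 for Syk. Centring on array medians gave 0.011 for Cd79b before leukemia, and repeated quantile normalization gave -0.00063 for the stage by genotype difference of Plcg2.

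In the comparison of leukemic genotypes, 0 to 1 members were called higher when each array was left out, the 1 being Blnk without wild-type leukemia 1 or 3. Over all 14 leukemias 4 of 54 Pearson correlations passed adjustment, against 0 over the Pax5+/- leukemias. By adjusted permutation p they were Igll1 with Vpreb1 (r = 0.838, p = 0.00918) and Cd79a with Pax5 (r = 0.801, p = 0.0135). The others were Cd79a with Vpreb3 (r = 0.783, adjusted permutation p = 0.0153) and with Syk (r = 0.716, adjusted permutation p = 0.0339). Wild-type leukemia 2, the lowest of the 14 in Igll1, Vpreb1, Cd79a and Pax5, is part of this set. These correlations were not repeated without that leukemia alone. The replicate numbers do not pair the mice (correlations of same-numbered deviations -0.363 to 0.138, with 1 of 17 the best match). The fit with the replicate block gave Igll1 in Pax5+/- mice -1.04 (adjusted p = 0.0485) and Vpreb1 in wild type -1.59 (adjusted p = 0.0263), and changed no other call of a member. It turned the sign of Igll1 before leukemia (0.14) and of the stage by genotype difference of Cd79b (0.046). Centring on the tested genes moved the median of all genes from -0.05 to -0.25 in Pax5+/- mice and to -0.18 in wild type. The mean of all probe sets gave the values reported, since each member has 1 probe set, and the fit to only the groups compared gives no difference of differences. With 4 and 3 wild-type mice, differences of 2.50-fold in Igll1 and 2.54-fold in Vpreb1 were not called.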
